A study of Mus musculus with 48 samples.

Results

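Expression of 4 genes of itaconate synthesis and dicarboxylate transport, Acod1, Slc13a3, Clybl and Slc25a1, was followed in mouse macrophages of 8 populations, each given a compound named AP-3-84 or its vehicle. The 4 genes were taken by symbol from the 51789 gene lines of the count table. Slc13a3 was chosen by its large rise after AP-3-84 in 1 population, unpolarized p53 knockout cells, so its values there are a description without a test. RNA was read as 3′ tags in 48 libraries, 16 groups of 3, and each group had 4 h with 10 µM AP-3-84 or an equivalent amount of DMSO. The ascites population was F4/80-positive cells, taken with magnetic beads from peritoneal washes of mice that had carried ID8, an ovarian tumour line of the mouse, for 45 days. The labels give its animals as C57BL/6 with the genotype B6(Cg)-Tyrc-2J/J. The thio population was F4/80-positive peritoneal cells of wild-type C57BL/6 mice, collected 4 days after 3% thioglycollate (1 ml), which irritates the cavity and so recruits macrophages. The other 6 populations were grown from bone marrow of C57BL/6 mice, wild-type (WT) or p53 knockout (KO), with M-CSF (10 ng/mL) over 6 days. Unpolarized cells are called M0. Polarization took a further 24 h, towards M1 in LPS (100 ng/mL) plus IFN-γ (50 ng/mL) and towards M2 in IL-4 plus IL-13, both at 10 ng/mL. The labels give neither the ages of the mice nor whether replicates came from separate animals or cultures, and they do not say how p53 was deleted. The p-values therefore measure the spread between libraries, which may be technical.

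Acod1, also called Irg1, encodes the mitochondrial enzyme that removes carbon dioxide from cis-aconitate, an intermediate of the TCA cycle, and so makes itaconate. Macrophages are known to switch it on in response to LPS and interferon, and itaconate inhibits succinate dehydrogenase and modifies cysteines of proteins such as KEAP1, the inhibitor of the antioxidant regulator NRF2. Slc13a3 encodes a sodium-coupled carrier of the plasma membrane that takes up dicarboxylates such as succinate and α-ketoglutarate and can carry itaconate. Clybl is a mitochondrial lyase that splits citramalyl-CoA, the last step of itaconate breakdown. Slc25a1 exports citrate from mitochondria, in competition with its use by aconitase ahead of Acod1.

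For the 2 genes whose levels moved most, Acod1 and Slc13a3, the sequences ahead of their starts are shown side by side. Each stretch holds 215 bases of GRCm38.p6 from RefSeq, 5′ to 3′ on the strand of the gene. Capitals mark matches to the motifs searched.
Acod1 (chr14:103046762-103046976, plus strand): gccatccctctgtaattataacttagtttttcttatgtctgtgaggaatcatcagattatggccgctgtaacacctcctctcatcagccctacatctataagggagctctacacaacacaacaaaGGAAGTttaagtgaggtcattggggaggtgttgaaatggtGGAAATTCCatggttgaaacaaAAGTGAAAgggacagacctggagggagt
Slc13a3 (chr2:165473233-165473447, minus strand): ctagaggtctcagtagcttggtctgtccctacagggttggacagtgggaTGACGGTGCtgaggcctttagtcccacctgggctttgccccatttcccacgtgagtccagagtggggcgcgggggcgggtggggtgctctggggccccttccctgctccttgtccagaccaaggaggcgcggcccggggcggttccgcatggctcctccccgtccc
In the Acod1 stretch the capitals mark, in this order, the ETS core GGAAGT, 125 bases before the RefSeq start, the palindromic kappaB motif GGAANTTCC, 85 bases before it, and the IRF motif AANNGAAA, 63 bases before it. Of 32817 RefSeq promoter windows of this length, 16% hold the ETS core, 0.646% the kappaB motif and 18.9% the IRF motif. The Slc13a3 stretch holds 1 match, to the antioxidant response element TGACNNNGC, 201 bases before its start, which 8.45% of the windows hold. Both strands were searched, also for the interferon-stimulated response element, which contains the IRF motif, for the interferon-gamma activated site TTCNNNGAA, the C/EBP motif TTGCNNCAA, the AP-1 motif TGANTCA and the p53 response element, and none of these letters was in either window. GC content was 43.3% ahead of Acod1 and 67% ahead of Slc13a3. A match is a description of letters and does not show that a factor binds. Acod1 (ENSMUSG00000022126) lies at 103046977 to 103056573 on the plus strand of chromosome 14 and Slc13a3 (ENSMUSG00000018459) at 165405028 to 165473230 on the minus strand of chromosome 2, in GENCODE M21 (GRCm38). Clybl (ENSMUSG00000025545) lies at 122181704 to 122402234 on the plus strand of chromosome 14 and Slc25a1 (ENSMUSG00000003528) at 17925223 to 17928219 on the minus strand of chromosome 16.

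Peritoneal libraries held 15532373 to 19417581 counts and bone marrow-derived ones 3081707 to 4645148. The 2 origins also differed in the sex of the mice, and they were fitted apart. Levels are given as CPM (library counts scaled to a common total, after TMM scaling), in the order of replicates 1, 2 and 3, and their values in the 2 origins stand side by side only. WT and KO were separated by titles and descriptions, since the genotype label reads wild-type throughout the bone marrow-derived cells. In bone marrow-derived cells the level of Trp53, the p53 gene, was 4.79 to 13.2 CPM for WT and 2.7 to 9.11 CPM for KO, which overlap, and a 3′ tag outside the deleted part of a gene does not check a knockout. Cdkn1a, the p21 gene and a known p53 target, ranged over 555 to 1119 CPM for WT and 34.1 to 292 CPM for KO, without overlap. Mdm2, also a known p53 target, overlapped, at 146 to 444 CPM for WT and 52.8 to 218 CPM for KO. With vehicle, its KO_M0 libraries stood at 57.4, 64 and 53.3 CPM and WT_M0 at 286, 172 and 191 CPM. KO_M1 vehicle libraries stood at 213, 173 and 213 CPM of Mdm2, and WT_M1 at 186, 179 and 177 CPM. The 7 macrophage markers (Adgre1, Csf1r, Cd68, Lyz2, Itgam, Mertk and Fcgr1) summed to 5894 to 48715 CPM over all libraries, lowest in KO_M2 vehicle replicate 3. Libraries that stood apart from their groups were WT_M2 vehicle replicate 1, where 8 neutrophil markers summed to 3940 CPM against 579 and 457 in replicates 2 and 3, and KO_M2 vehicle replicate 3, with 3269 CPM against 343 and 628. KO_M1 AP-3-84 replicate 1 stood at 3621 CPM of neutrophil markers against 777 and 724. These libraries enter several results below, which are given with and without them where that matters. In bulk RNA, fewer cells of a type and less RNA per cell cannot be told apart.

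**Figure D1:**
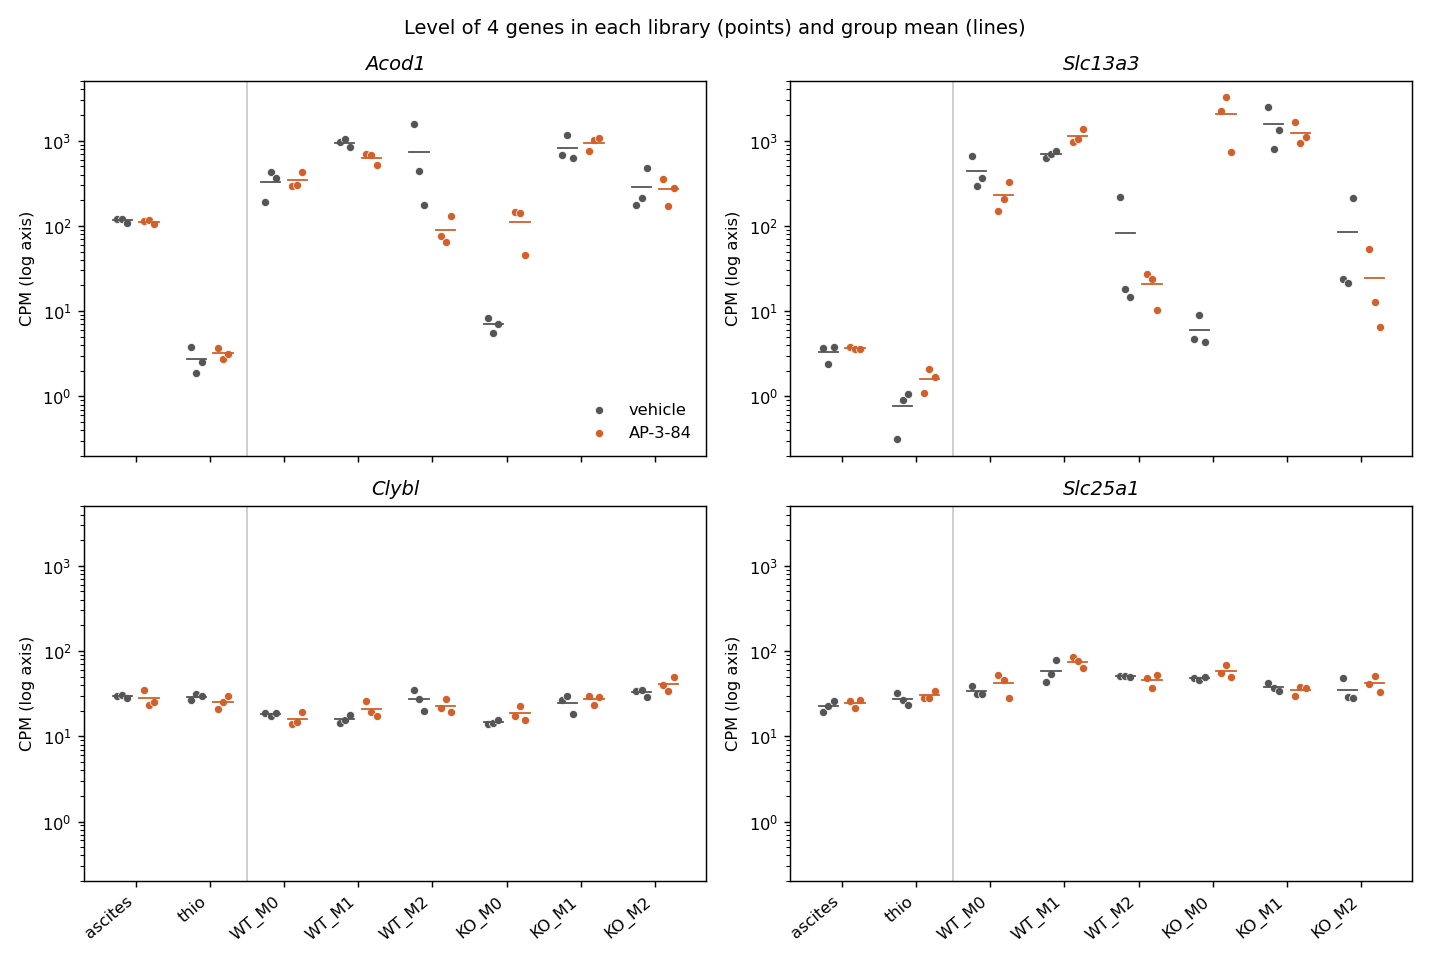
Level of Acod1, Slc13a3, Clybl and Slc25a1 in CPM (log axis) in the 48 libraries, by population. Points are libraries, lines are group means, grey is vehicle and orange AP-3-84, and the vertical line divides peritoneal from bone marrow-derived populations. Acod1 ranged from 5.54 to 1582 CPM and Slc13a3 from 4.33 to 3259 CPM in bone marrow-derived libraries, while Clybl stayed between 13.9 and 50.2 CPM and Slc25a1 between 28.5 and 85.8 CPM.

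Acod1 was far higher in ascites than in thioglycollate macrophages. The 3 ascites vehicle libraries stood at 119, 122 and 107 CPM and the 3 thio vehicle libraries at 3.77, 1.88 and 2.5 CPM (59, 31 and 46 counts). The groups did not overlap, and the difference was 5.42 on the log2 scale, 42.9-fold (SE 0.164, edgeR adjusted p 3.78e-13). In this comparison 33.7% of the 16955 genes tested were called. Of 17 inducers of Acod1 (receptors, adaptors and transcription factors), 13 were higher in ascites and 1 lower, with a median log2 difference of 0.35 against 0.05 over all genes. All 48 libraries in one fit gave 6 higher and none lower. Irf1, an interferon-induced transcription factor, stood at 191 ± 2.85 against 59.4 ± 2.65 CPM (SD, n = 3; log2 difference 1.68, SE 0.0701, edgeR adjusted p 3.54e-12). Among 10 of 12 M1 markers that could be tested, 9 were higher in ascites, led by Irf7 (log2 difference 5.71) and Gbp2 (3.95). Nos2 and Il6 lay below the filter on low counts, and the summed level of the M1 markers was 1361 to 1425 CPM in ascites and 34.4 to 47.7 CPM in thio vehicle libraries. Of 10 M2 markers, 7 were also higher in ascites and 2 lower. Their summed level was 888 to 990 CPM in ascites and 396 to 409 CPM in thio vehicle libraries. The 7 markers of ovarian epithelial or ID8 tumour cells summed to 185 to 219 CPM in ascites and to 2.98 to 4.66 CPM in thio vehicle libraries, and 4 mesothelial or fibroblast markers to 50.4 to 66.5 and 11.2 to 15.7 CPM. Their part in the result was not tested.

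Among the unpolarized vehicle cells, Acod1 was low in KO and abundant in WT. WT_M0 libraries stood at 189, 427 and 360 CPM and KO_M0 libraries at 8.39, 5.54 and 7.03 CPM (32, 18 and 26 counts). No library overlapped, the log2 difference was -5.53 (SE 0.693, edgeR adjusted p 2.50e-06), and 33.2% of 11779 genes were called. M1 markers summed to 383 to 656 CPM in WT_M0 and to 92.5 to 116 CPM in KO_M0 vehicle libraries. Of the 12, 4 were called, all lower in KO, a share near the 33.2% of all genes called. Of the 17 inducers of Acod1, 6 were higher in KO_M0 and 3 lower (median 0.31 against 0.03 over all genes). Mesothelial or fibroblast markers were higher in KO_M0, at 99.3 to 150 CPM against 9.65 to 12.4 CPM, with Upk3b, the mesothelial marker, at 0. Whether either bears on Acod1 was not tested. After polarization the genotypes overlapped. WT_M1 vehicle libraries stood at 953, 1032 and 848 CPM and KO_M1 at 680, 1171 and 625 CPM, overlapping, and the log2 difference of -0.19 (SE 0.529) was not called (edgeR adjusted p 0.857, 11.6% of genes called). It was 0.07 when libraries were scaled by total counts only. In M2, WT libraries stood at 1582, 436 and 176 CPM and KO libraries at 177, 212 and 478 CPM. These overlapped as well, and the log2 difference of -1.34 (SE 0.54, edgeR adjusted p 0.166, 3.56% of genes called) was -0.10 without WT_M2 replicate 1.

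In KO cells, Acod1 was higher in both polarized vehicle groups than in M0. From M0 to M1 the difference was 6.87 on the log2 scale, 117-fold (SE 0.724, edgeR adjusted p 9.88e-08), where 44.5% of genes were called. From M0 to M2 it was 5.36, or 41-fold (SE 0.69, edgeR adjusted p 1.72e-06, 38% of genes called). No KO_M1 or KO_M2 vehicle library overlapped KO_M0. Both differences, and that between KO_M0 and WT_M0, share the KO_M0 vehicle libraries, at 32, 18 and 26 counts. The labels give no matching 24 h for M0, so culture time and cytokines cannot be told apart. The 12 M1 markers were all called higher in KO_M1 than in KO_M0 and 7 of them higher in KO_M2, where the 10 M2 markers were all higher too. The 17 inducers of Acod1 were divided. From KO_M0 to KO_M1, 3 were higher and 5 lower, a share near the 44.5% of all genes called there. Their median was -0.07 against -0.01 over all genes. Among those called were Cebpb, a transcription factor (1.19), and Ifngr1, a chain of the interferon-gamma receptor (-2.12). From KO_M0 to KO_M2, 3 were higher and 6 lower (median -0.31 against 0.02). Macrophage markers summed to 32252 to 38950 CPM in KO_M0, to 16073 to 25150 CPM in KO_M1 and to 5894 to 18413 CPM in KO_M2 vehicle libraries, and neutrophil markers to 567 to 721, 985 to 2483 and 343 to 3269 CPM. Their part in these differences was not tested. KO_M1 exceeded KO_M2 by 1.51 (SE 0.542, edgeR adjusted p 0.0416, 25.4% of genes called). That call was lost without KO_M1 replicate 1 or 2 or KO_M2 replicate 1 or 2 (edgeR adjusted p 0.0613, 0.136, 0.171 and 0.138) and with the replicate number as a block (0.056). The difference was 2.09 without KO_M2 replicate 3.

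In WT cells the same steps were smaller and were not called. WT_M1 stood above WT_M0 without overlap, by a log2 difference of 1.54 (SE 0.542, edgeR adjusted p 0.0552), with 15.5% of genes called. The DESeq2 test, the fit of all 48 libraries and the fit of only these groups gave adjusted p of 0.0222, 0.0283 and 0.0246. WT_M2 exceeded WT_M0 by 1.17 (SE 0.537, edgeR adjusted p 0.119, 23.4% of genes called), and without WT_M2 replicate 1, at 1582 CPM, the value was -0.10. WT_M1 and WT_M2 differed by 0.37 (SE 0.53, edgeR adjusted p 0.671, 25.5% of genes called). Without WT_M2 replicate 1 that difference became 1.61, with an edgeR adjusted p of 0.0184. From WT_M0 to WT_M1, 5 of 17 inducers of Acod1 were higher and none lower, among them Ifnar2, a chain of the type I interferon receptor (log2 difference 0.63). When libraries were scaled by total counts only, 1 of these inducers was higher and 1 lower. Of the 12 M1 markers, 6 were higher in WT_M1, led by Cd38 (log2 difference 6.14) and Irf7 (4.05).

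**Figure D2:**
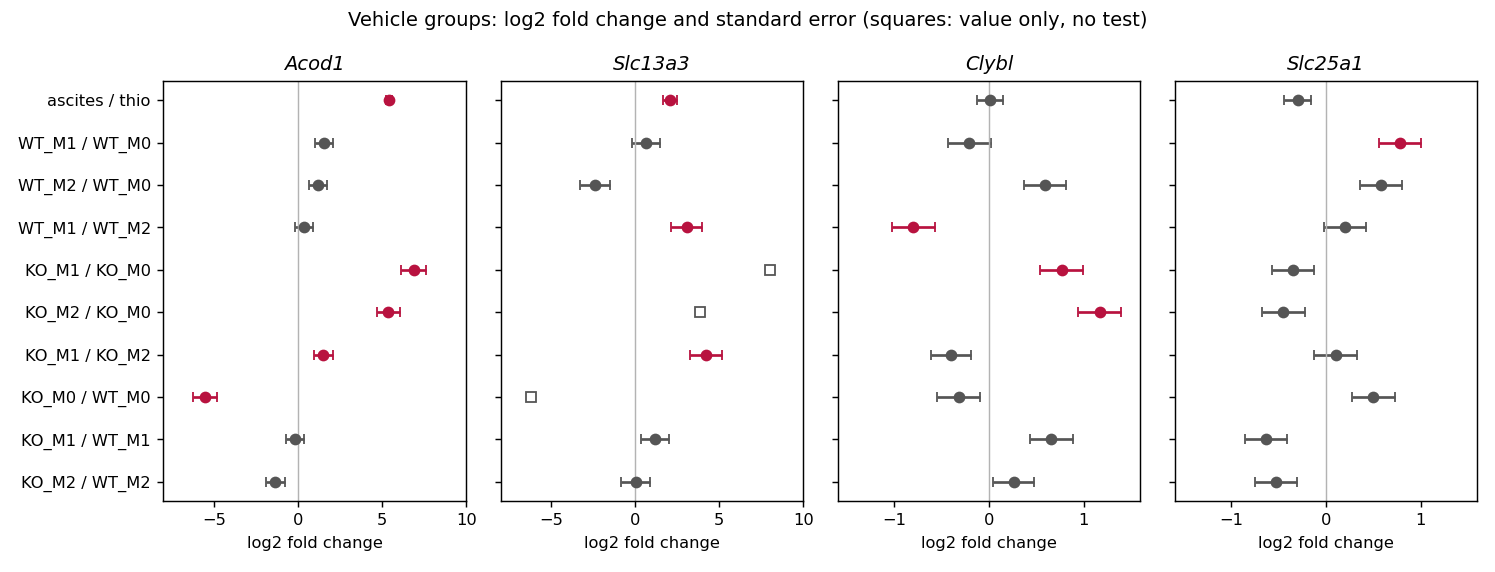
Log2 fold change (x axis) of each gene between vehicle groups (rows, first group over second), with its standard error. Red points passed an edgeR adjusted p of 0.05, grey points did not, and open squares are values without a test, and the axis is narrower for Clybl and Slc25a1. Acod1 differed most from KO_M0 to KO_M1 (6.87) and between KO_M0 and WT_M0 (-5.53), and no value of Clybl or Slc25a1 exceeded 1.17 in size.

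After AP-3-84, Acod1 fell in WT_M2 and was called in no other population in which it was tested. WT_M2 libraries stood at 1582, 436 and 176 CPM with vehicle and at 76, 64.3 and 129 CPM with AP-3-84. The groups did not overlap, and the fall was 8.16-fold, or -3.03 on the log2 scale (SE 0.577, edgeR adjusted p 0.00622). In this comparison 1.21% of genes were called. The value was -1.78 without vehicle replicate 1 (edgeR adjusted p 0.083), and the call was also lost without AP-3-84 replicate 1 or 2 (0.0698 and 0.0679) and with only these groups in the fit (0.371). M1 markers moved with it. Of the 12, 6 were called lower and none higher, with a median of -2.90 against 0.00 over all genes. Tnf fell from 199 ± 91.1 to 47.9 ± 15.8 CPM (SD, n = 3; -2.06 on the log2 scale, edgeR adjusted p 0.00668). The summed level of the M1 markers was 991, 568 and 275 CPM with vehicle and 91.7, 88.2 and 154 CPM with AP-3-84, in the same order of replicates as above, so that the vehicle library highest in Acod1 was also highest in the M1 markers and in the neutrophil markers. Without that library 2 of the 12 were called, and none without AP-3-84 replicate 1 or 2. M2 markers also summed lower after AP-3-84, at 6339, 7453 and 6869 CPM against 11485, 11523 and 9482 CPM with vehicle. Of these 10 genes, 1 was called lower (Ccl24, log2 fold change -2.90) and none higher, with a median of -0.21. Cd14, the LPS co-receptor, was the 1 inducer of 17 that was called, from 114 ± 75 to 47 ± 5.03 CPM (SD, n = 3; -1.28 on the log2 scale, edgeR adjusted p 0.0473), a call lost without AP-3-84 replicate 1 or 2, with total counts, with the block and with only these groups. The part of the neutrophil or M1 signal of vehicle replicate 1 in the fall was not tested beyond these values.

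**Figure D3:**
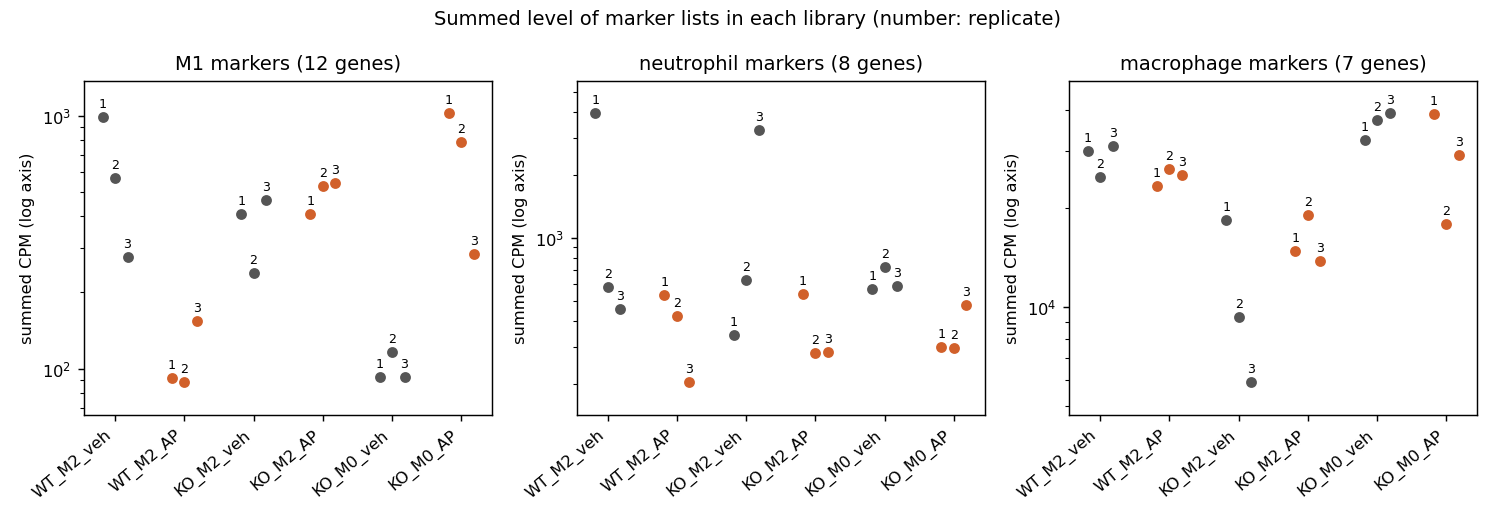
Summed level in CPM (log axis) of 12 M1 markers, 8 neutrophil markers and 7 macrophage markers in the M2 groups and in KO_M0, by library. Each point is a library with its replicate number, grey with vehicle and orange with AP-3-84. WT_M2 vehicle replicate 1 and KO_M2 vehicle replicate 3 are highest in neutrophil markers, at 3940 and 3269 CPM.

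In the remaining tested populations the Acod1 response to AP-3-84 lay between -0.58 and 0.24 on the log2 scale (edgeR adjusted p 0.63 to 1). Ascites libraries stood at 114, 116 and 104 CPM after AP-3-84, inside the range of vehicle or just below it (log2 fold change -0.06, SE 0.122, 1.79% of genes called). Thio libraries stood at 3.68, 2.74 and 3.15 CPM (0.24, SE 0.198, 4.32% of genes called). WT_M0 libraries stood at 292, 303 and 429 CPM and overlapped vehicle (0.07, SE 0.532, 0.144% of genes called). WT_M1 libraries, at 691, 681 and 523 CPM, all lay below vehicle (log2 change -0.58, SE 0.531, edgeR adjusted p 0.855), where 0.017% of genes were called. In a fit of only these 2 groups the adjusted p was 0.0334. KO_M1 libraries stood at 758, 1011 and 1074 CPM (0.20, SE 0.529), in a population where 0% of genes were called by edgeR, 206 had an unadjusted p under 0.05, and DESeq2 also called 0. KO_M2 libraries stood at 358, 171 and 281 CPM (-0.10, SE 0.533, 0.0509% of genes called), and the value was 0.47 without vehicle replicate 3.

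In KO_M0, the population by which Slc13a3 was selected, Acod1 stood at 147, 140 and 46.1 CPM after AP-3-84 against 8.39, 5.54 and 7.03 CPM with vehicle, a log2 fold change of 3.98. The AP-3-84 libraries lay above all vehicle libraries and below all WT_M0 vehicle libraries, and replicate 3 was the lowest of them. In the same contrast 20.7% of genes were called, from which nothing is read for these genes. M1 markers summed to 1021, 786 and 283 CPM after AP-3-84 and to 92.5, 116 and 92.5 CPM with vehicle, and replicate 3 was again the lowest of the treated libraries. Macrophage markers summed to 38791, 17926 and 29060 CPM after AP-3-84. Nfkbiz, a regulator that itaconate is known to restrain, went from 11.6 ± 2.21 to 237 ± 145 CPM, and Slc7a11, the cystine carrier, from 6.19 ± 2.86 to 29.4 ± 19.5 CPM (SD, n = 3).

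The difference between the KO and the WT response of Acod1 in M2 was 2.93 on the log2 scale (SE 0.772, edgeR adjusted p 0.0493), in a comparison where 1.77% of genes were called. WT_M2 fell and KO_M2 had a log2 fold change near 0. The call was lost when any 1 of the M2 libraries other than WT_M2 vehicle replicate 3 and WT_M2 AP-3-84 replicate 3 was left out (edgeR adjusted p 0.0508 to 0.17), with the replicate number as a block (0.0849), with total counts (0.0575), with only the groups compared (0.293) and with WT_M2 vehicle replicate 1 and KO_M2 vehicle replicate 3 both left out (value 2.26, 0.105). In the other 4 differences between responses that were tested, no member passed. These were ascites minus thio (0.118% of genes called), KO minus WT in M1 (0.00849%), and, in WT cells, M1 minus M0 (0.0255%) and M2 minus M0 (0.136%). Acod1 had -3.10 (SE 0.773, edgeR adjusted p 0.113) in the last of these, and -1.85 without WT_M2 vehicle replicate 1. Slc13a3 ranged from -1.07 to 1.65 over all 5 differences, with SE from 0.551 to 1.29.

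Slc13a3 covered an even wider range, and it was chosen on the largest step of that range. KO_M0 libraries stood at 4.72, 8.93 and 4.33 CPM with vehicle (18, 29 and 16 counts) and at 2233, 3259 and 737 CPM after AP-3-84. The log2 fold change was 8.45, or 349-fold, and the lowest treated library stood above every library of WT_M0. Leaving out 1 library at a time gave 7.97 to 8.86. With vehicle, KO_M0 also stood below WT_M0 (665, 291 and 367 CPM, log2 difference -6.21) and below KO_M1 (2491, 803 and 1350 CPM, 8.02 lower than KO_M1) and KO_M2 (24.1, 21.4 and 210 CPM, 3.84 lower). The last value was 1.94 without KO_M2 replicate 3. All of these share the KO_M0 vehicle libraries of the choice and are described without a test.

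In polarized vehicle cells, Slc13a3 was high in M1 and low in M2 in both genotypes. WT_M1 stood at 626, 706 and 750 CPM and WT_M2 at 216, 18.1 and 14.6 CPM, without overlap, and the log2 difference was 3.06 (SE 0.905, edgeR adjusted p 0.0134). It was 5.39 without WT_M2 replicate 1, and not called without WT_M2 replicate 2 or 3 (edgeR adjusted p 0.0693 and 0.0701) or in a fit of only these groups (0.158). KO_M1 exceeded KO_M2 by 4.19 (SE 0.947, edgeR adjusted p 0.00179). That value was 6.09 without KO_M2 replicate 3, the library at 210 CPM, and a fit of only these groups gave an adjusted p of 0.0565. WT_M2 vehicle replicate 1 and KO_M2 vehicle replicate 3, the M2 libraries highest in Slc13a3, were also those highest in Acod1 and in neutrophil markers, and the part of those cells was not tested. WT_M2 stood below WT_M0 by 2.40 on the log2 scale (SE 0.883), just short of a call (edgeR adjusted p 0.0503). Without WT_M2 replicate 1 the log2 difference was -4.76 (edgeR adjusted p 0.00142). WT_M1 and WT_M0 overlapped (log2 difference 0.65, SE 0.832, edgeR adjusted p 0.661). KO_M1 stood above WT_M1 by 1.16 without overlap (SE 0.837, edgeR adjusted p 0.398), and in M2 the genotypes overlapped (0.03, SE 0.857, edgeR adjusted p 0.993).

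Peritoneal cells held little Slc13a3. Ascites vehicle libraries stood at 3.71, 2.37 and 3.8 CPM (62, 48 and 70 counts) and thio vehicle libraries at 0.319, 0.911 and 1.08 CPM (5, 15 and 20 counts), and ascites was higher by 2.06 on the log2 scale (SE 0.404, edgeR adjusted p 0.000572). With all 48 libraries in one fit the value was 2.00 and the adjusted p 0.206.

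Outside KO_M0, Slc13a3 was called after AP-3-84 in none of the 7 populations by the edgeR test (adjusted p 0.213 to 1). In 2 of them the groups did not overlap. Thio libraries stood at 1.1, 2.07 and 1.67 CPM, above all vehicle libraries, and the log2 change was 1.04 (SE 0.417, edgeR adjusted p 0.213). WT_M1 libraries stood at 959, 1053 and 1359 CPM, also above all of vehicle (0.70, SE 0.831, edgeR adjusted p 0.897, and 0.0187 in a fit of only these groups). WT_M0 libraries stood at 150, 204 and 328 CPM, overlapping vehicle (-0.96, SE 0.839). Ascites libraries stood at 3.84, 3.6 and 3.63 CPM (0.17, SE 0.362), and KO_M1 libraries at 1639, 939 and 1110 CPM (-0.33, SE 0.826). In M2, WT libraries stood at 27.2, 24.1 and 10.3 CPM and KO libraries at 54.1, 12.8 and 6.59 CPM. Their log2 fold changes of -2.02 (SE 0.93) and -1.82 (SE 0.918) became 0.32 and 0.08 without WT_M2 vehicle replicate 1 and KO_M2 vehicle replicate 3. Both values thus rested on 1 vehicle library each.

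**Figure D4:**
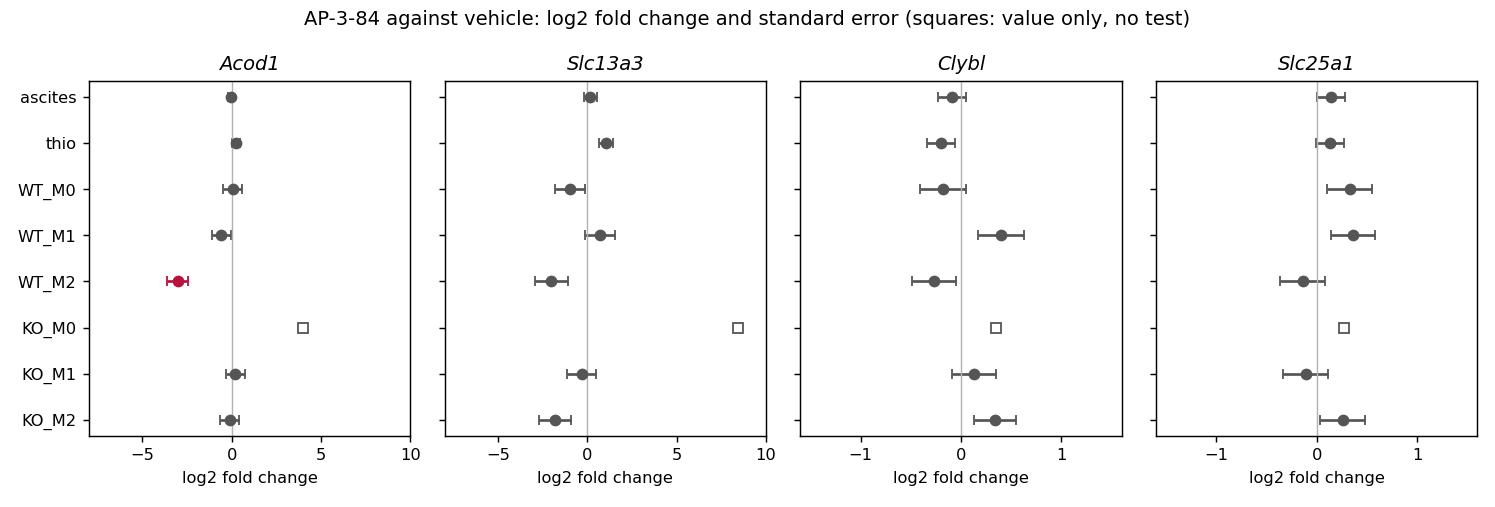
Log2 fold change (x axis) of each gene after AP-3-84 against vehicle in the 8 populations (rows), with its standard error. Red points passed an edgeR adjusted p of 0.05, grey points did not, and open squares (KO_M0) are values without a test, and the axis is narrower for Clybl and Slc25a1. The 1 red point is Acod1 in WT_M2, at -3.03.

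Ordered by mean level, Acod1 in bone marrow-derived cells ran from KO_M1 with AP-3-84 (948 ± 167 CPM), WT_M1 with vehicle (944 ± 92.4), KO_M1 with vehicle (825 ± 301), WT_M2 with vehicle (732 ± 748) and WT_M1 with AP-3-84 (632 ± 93.9) down to the 4 groups of WT_M0 and KO_M2, at 270 to 341 CPM. Below them came KO_M0 with AP-3-84 (111 ± 56.5), WT_M2 with AP-3-84 (89.7 ± 34.3) and KO_M0 with vehicle (6.99 ± 1.42 CPM, SD, n = 3 each). Neighbours overlapped except between WT_M1 and WT_M0 with AP-3-84, between KO_M2 and KO_M0 with AP-3-84, and above KO_M0 with vehicle. For Slc13a3 the order began with KO_M0 with AP-3-84 (2076 ± 1268 CPM), both KO_M1 groups (1548 ± 861 with vehicle and 1229 ± 365 with AP-3-84), and WT_M1 with AP-3-84 (1124 ± 209 CPM). It continued with WT_M1 with vehicle (694 ± 62.7) and the WT_M0 groups (441 ± 198 with vehicle and 227 ± 91.7 with AP-3-84). The 4 M2 groups lay between 20.5 and 85 CPM, and KO_M0 with vehicle was last (5.99 ± 2.55 CPM, SD, n = 3 each). Here neighbours overlapped except between the WT_M1 groups and above KO_M0 with vehicle. In peritoneal cells the order of Acod1 was ascites with vehicle, ascites with AP-3-84, thio with AP-3-84 and thio with vehicle, and the 2 groups within each population overlapped.

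Clybl, the lyase of the last step, varied little. Its level was 21.2 to 34.5 CPM in peritoneal cells and, in bone marrow-derived ones, 13.9 to 50.2 CPM. AP-3-84 gave log2 fold changes of -0.27 to 0.40 in the 7 tested populations (SE 0.141 to 0.228, edgeR adjusted p 0.542 to 1), and 0.35 in KO_M0. Among bone marrow-derived vehicle groups its mean was highest in KO_M2 and lowest in KO_M0. KO_M2 libraries stood at 33.7, 35.4 and 29.3 CPM and KO_M0 libraries at 13.9, 14.2 and 15.7 CPM, without overlap, a log2 difference of 1.17 (SE 0.225, edgeR adjusted p 0.000123). KO_M1 libraries, at 26.6, 30.1 and 18.1 CPM, also exceeded KO_M0, by 0.77 (SE 0.226, edgeR adjusted p 0.00631). WT_M1 libraries stood at 14.3, 15.4 and 17.6 CPM, below WT_M2 at 35.3, 27.1 and 19.6 CPM. The log2 difference was -0.80 (SE 0.225, edgeR adjusted p 0.0079) and was not called without WT_M2 replicate 1 (-0.58, 0.0811). The other 7 vehicle comparisons gave -0.40 to 0.66 and were not called (edgeR adjusted p 0.0513 to 0.969).

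Slc25a1, the citrate carrier, was called after AP-3-84 in no tested population. Its level was 19.2 to 34.2 CPM in peritoneal cells and, in bone marrow-derived ones, 28.5 to 85.8 CPM, with log2 fold changes after AP-3-84 of -0.14 to 0.36 (SE 0.14 to 0.225, edgeR adjusted p 0.658 to 1) and of 0.27 in KO_M0. It was higher in WT_M1 (42.9, 53.5 and 77.8 CPM) than in WT_M0 (39.3, 31.1 and 31.2 CPM), without overlap, by 0.78 (SE 0.223, edgeR adjusted p 0.0147). The call was lost without WT_M0 replicate 2 or 3 or WT_M1 replicate 3 (edgeR adjusted p 0.072, 0.0682 and 0.185) and under scaling by total counts only (value 0.48, 0.101). The other 9 vehicle comparisons gave -0.63 to 0.58 (edgeR adjusted p 0.0578 to 0.779). KO_M1 libraries stood at 41.8, 37 and 34.4 CPM, below all of WT_M1, and the log2 difference of -0.63 was not called (edgeR adjusted p 0.0607).

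The other enzymes around Acod1 were described by lists. Of 6 genes of itaconate breakdown, Suclg2, a subunit of succinyl-CoA ligase, fell in thio after AP-3-84 from 24.2 ± 1.93 to 17.5 ± 0.577 CPM (SD, n = 3; -0.46 on the log2 scale, SE 0.1, edgeR adjusted p 0.0117). It was lost when AP-3-84 replicate 2 or vehicle replicate 1 or 2 was left out and with all 48 libraries in one fit. No other gene of that list was called after AP-3-84 in the 7 populations outside KO_M0, and Sugct lay below the filter in bone marrow-derived cells. In KO cells, 4 of the 5 tested were higher in M2 than in M0, where 38% of all genes were called, and 2 without KO_M0 replicate 3. The 24 TCA cycle and feeder enzymes were called after AP-3-84 only in thio among those 7 populations, with 1 higher (Me1, malic enzyme, from 9.35 ± 0.508 to 17.2 ± 2.02 CPM) and 1 lower (Idh2, from 74.1 ± 5.09 to 56.9 ± 2.79 CPM, SD, n = 3). After AP-3-84, 4.32% of all genes were called in thio. The Idh2 call was lost when AP-3-84 replicate 1 or 2 or vehicle replicate 1 was left out, and both calls with all 48 libraries in one fit. Between KO_M0 and WT_M0 vehicle cells, 4 were higher in KO and 11 lower, 15 of 24 where 33.2% of all genes were called (median -0.44 against 0.03 over all genes). Without KO_M0 replicate 3, 1 was higher and 8 lower. In KO_M2, 15 were higher than in KO_M0 and none lower, where 38% of all genes were called (median 0.68 against 0.02). From KO_M0 to KO_M1, 8 were higher and 3 lower, a share near the 44.5% of all genes called there, among them Mdh2, malate dehydrogenase (log2 difference 1.26), and Idh3g, a subunit of isocitrate dehydrogenase (-0.99). From WT_M0 to WT_M1, Mdh2 was the 1 called, at 457 ± 47.2 against 267 ± 59.7 CPM (SD, n = 3; log2 difference 0.77, SE 0.212, edgeR adjusted p 0.0111). It was lost without WT_M0 replicate 2 or 3 or WT_M1 replicate 3, and with total counts, where 5 of the 24 were lower.

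Among 13 di- and tricarboxylate carriers, Slc13a1, Slc13a4, Slc13a5 and Slc25a21 lay below the filter in bone marrow-derived cells, with at most 9 counts in a library. From WT_M0 to WT_M1, 2 of the 9 tested were higher and 1 lower, where 15.5% of all genes were called. The lower was Slc25a13 (log2 difference -0.75, SE 0.204, edgeR adjusted p 0.0105). Slc16a3, the lactate exporter and like Slc16a1 a carrier of monocarboxylates, was higher in M1 than in M0 in both genotypes. The log2 difference was 1.37 in WT (SE 0.264, edgeR adjusted p 0.000568). In KO it was 2.26 (SE 0.276, edgeR adjusted p 2.28e-07), where 44.5% of all genes were called. Slc16a1, a carrier of lactate and other monocarboxylates, rose in ascites after AP-3-84, from 7.51 ± 0.806 to 12.3 ± 2.18 CPM (SD, n = 3; 0.71 on the log2 scale, SE 0.153, edgeR adjusted p 0.0192). That call was lost without any 1 of the vehicle libraries or AP-3-84 replicate 1, with the block, with all 48 libraries in one fit and with only these groups. In KO_M0 after AP-3-84, the contrast of the choice, given as values only, Slc25a10, the mitochondrial dicarboxylate carrier, went from 29.8 ± 2.87 to 140 ± 72.6 CPM. The receptors of itaconate and succinate, Oxgr1 and Sucnr1, had at most 2 counts in any library and were not detectable at this depth.

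Genes known to respond to itaconate through KEAP1, NRF2 or ATF3, which other electrophiles also move, rose in both peritoneal populations after AP-3-84, where Acod1 had no call. In each, 8 of 11 were higher and none lower, with a median of 0.93 in ascites and of 0.81 in thio, where 1.79% and 4.32% of all genes were called. Leaving out 1 library at a time gave 7 to 8, and all 48 libraries in one fit gave 3 in ascites and 4 in thio. Gclm, a subunit of the enzyme that starts glutathione synthesis, rose from 141 ± 1.31 to 311 ± 19.2 CPM in ascites and from 214 ± 3.45 to 477 ± 21 CPM in thio (SD, n = 3). Srxn1, sulfiredoxin, rose by 0.97 in ascites (SE 0.0689, edgeR adjusted p 2.04e-07) and by 1.29 in thio (SE 0.0689, edgeR adjusted p 4.59e-09). In WT_M0, Gclc and Srxn1 rose, 2 of the 11, to 143 ± 20.9 and 782 ± 15.7 CPM from 38.5 ± 8.96 and 237 ± 24.7 CPM (SD, n = 3), but 0 were called without vehicle replicate 1 or 3 or AP-3-84 replicate 1, and 1 without replicate 2 of either group. The edgeR test called 0 of them in WT_M1, WT_M2, KO_M1 and KO_M2, with medians of 0.39, 0.33, -0.03 and 0.96. In KO_M2, leaving out vehicle replicate 1 gave 6 called, leaving out AP-3-84 replicate 1 gave 3, and DESeq2 called 3. With vehicle, 10 of the 11 differed between ascites and thio, 4 higher and 6 lower, among them Atf3 (88.3 ± 4.65 against 232 ± 1.05 CPM, SD, n = 3). In that comparison 33.7% of all genes were called.

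The genes whose log2 CPM ran most like that of Acod1 over the 36 bone marrow-derived libraries were Slc31a2, a copper carrier (Pearson r 0.910), Gch1, the first enzyme of tetrahydrobiopterin synthesis (0.908), Tank, an adaptor of NF-kB and interferon signalling (0.906), Gk, glycerol kinase (0.906), and Mlkl, the effector of necroptosis (0.895). Gch1 stood at 14.9 ± 3.4 CPM in KO_M0 with vehicle, at 60.8 ± 13.8 CPM there with AP-3-84 and at 133 ± 15 CPM in WT_M1 with vehicle (SD, n = 3). Those most like Slc13a3 were Zfp811 (0.957), Siglece, an inhibitory receptor of myeloid cells (0.942), Slamf9 (0.940), Cd55, which restrains complement (0.939), and Gm15675 (0.937). None of these 10 genes was shared by both members. The 36 libraries include those of KO_M0 by which Slc13a3 was chosen, and each gene most like it was also higher there after AP-3-84. In KO_M0 the mean of Zfp811 went from 0.0902 to 25.3 CPM and that of Siglece from 1.46 to 91.9 CPM. The r of these genes was not computed without KO_M0. Slc25a1 ran most like Cenpb (0.772). Acod1 and Slc13a3 had an r of 0.63 with each other, which placed Slc13a3 at rank 582 of 11778 genes for Acod1. Without the 6 KO_M0 libraries it was 0.74 (n = 30), and the deviations of the libraries from their group means gave 0.55. These libraries share populations and the 2 M2 libraries that stood apart, so the values describe them and carry no test. In the 12 peritoneal libraries Acod1 formed 2 separate groups, ascites and thio, and the genes most like it, Ifit1, Ccl5, Cfb, Marco and Ms4a6d, divide them the same way. There the r of Acod1 with Slc13a3 was 0.81, but the deviations from group means gave -0.83. Slc13a3 had 5 to 70 counts in those libraries, and these values carry no test either.

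**Figure D5:**
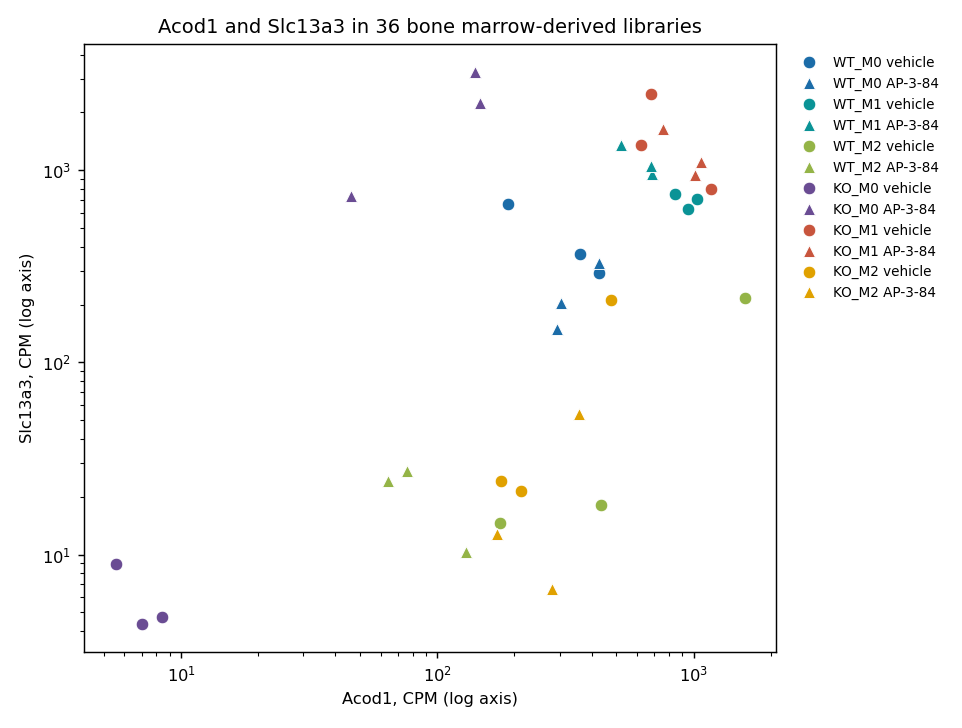
Acod1 (x axis) and Slc13a3 (y axis) in CPM, both on log axes, in the 36 bone marrow-derived libraries. Colours are populations, circles vehicle and triangles AP-3-84. KO_M0 with AP-3-84 lies at the top (737 to 3259 CPM of Slc13a3) at 46.1 to 147 CPM of Acod1, M1 libraries at the upper right, and KO_M0 with vehicle at the lower left.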

How the data were processed

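RNA of 48 libraries was read as 3′ tags (QuantSeq FWD, 100 ng of RNA, single reads of 75 bases, per the labels' protocols). The deposited table holds raw counts per gene, which the authors made from those reads, and RSEM, Bowtie2 and DESeq2 are named in the submitters' processing notes without role or version. The genome build behind the counts was not given in the sources used here. Of 51789 gene identifiers, 51596 had a symbol.

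Groups follow titles and descriptions. The 12 peritoneal and 36 bone marrow-derived libraries were fitted apart in edgeR 4.0.16 (R 4.3.3, limma 3.58.1) by the quasi-likelihood test with TMM scaling, the tool's filter on low counts and robust spread, leaving 16955 and 11779 genes. P-values are two-sided and Benjamini-Hochberg adjusted over those genes, called under 0.05, and SE is the size of the log2 fold change over the root of F. The procedure was tested on simulated data. Alternatives were other size factors, total counts, no filter, DESeq2 1.42.0, a replicate block, all 48 libraries in one fit, only the groups compared, and each library left out. Leaving out WT_M2 vehicle replicate 1 and KO_M2 vehicle replicate 3 together was added after seeing the data. Within groups, counts of replicates differed by more than sampling noise, so each library counted as 1 replicate.

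The members and gene lists were chosen with earlier results of these data known. Named genes are the 4 members and up to 2 called genes per list, by lowest p, in WT and KO M1 against M0, in ascites against thio and in each AP-3-84 comparison. Trp53, Cdkn1a and Mdm2 were added to check genotype. Most-like genes are the 5 with the highest Pearson r of log2 CPM (prior count 2). Some genes that these rules name are not reported here.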

Additional observations from a re-analysis of the deposited data

Results flagged for a closer look

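The response of Acod1 to AP-3-84 differed between KO and WT cells in M2 by 2.93 on the log2 scale (SE 0.772, edgeR adjusted p 0.0493), by a test of the difference itself. WT_M2 libraries went from 1582, 436 and 176 CPM with vehicle to 76, 64.3 and 129 CPM, while KO_M2 libraries went from 177, 212 and 478 CPM to 358, 171 and 281 CPM. Over the alternatives tried the value lay between 1.70 and 3.50, the lower of which came without WT_M2 vehicle replicate 1 (edgeR adjusted p 0.17). The call was lost in most of them, with an edgeR adjusted p of up to 0.293, in the fit of only the groups compared.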

How the results depend on the processing

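Of 756 alternative values of 52 results on the 4 genes, 660 kept their direction and their side of the threshold. Values are log2, and the cause of a change was not tested unless the setting itself shows it. With libraries scaled by total counts only, the KO minus WT difference of the Acod1 response in M2 was 2.71, Acod1 in KO_M1 minus WT_M1 0.07 (reversed), the same difference of Slc13a3 responses in M2 -0.06 (reversed), Slc13a3 in WT_M2 minus WT_M0 -2.65 and Slc25a1 in WT_M1 minus WT_M0 0.48. Under that scaling the median of all genes was -0.30 in WT_M1 minus WT_M0 and -0.20 in WT_M2 minus WT_M0. It was 0.27 and 0.19 in KO minus WT in M1 and M2, and 0.14 in ascites minus thio. The main fit gave medians of 0.00 to 0.05 in these comparisons.

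With the replicate number as a block, the Acod1 difference of responses in M2 was 2.86, Acod1 in KO_M1 minus KO_M2 1.51 (edgeR adjusted p 0.056), the Slc13a3 difference of responses in M2 -0.31 (reversed) and Slc13a3 in WT_M2 minus WT_M0 -2.61 (edgeR adjusted p 0.0363). It changed no other call on the 4 genes, and among list genes named in the text it ended those of Cd14 (WT_M2), Slc16a1 (ascites), Mut and Acly (thio) after AP-3-84. Libraries of the same number did not pair, with a median correlation of deviations of 0.00 over 198 bone marrow-derived and of -0.03 over 18 peritoneal pairs, and 13 of 36 and 1 of 12 libraries were closest to their own number.

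With only the groups compared, Acod1 gave -0.58 (WT_M1) and -3.03 (WT_M2) after AP-3-84, 2.94 for the M2 difference of responses and 1.51 in WT_M1 minus WT_M0. Slc13a3 gave 0.70 after AP-3-84 in WT_M1, 3.03 in WT_M1 minus WT_M2 and 4.19 in KO_M1 minus KO_M2. With no filter on low counts, Slc13a3 after AP-3-84 had an edgeR adjusted p of 5.38e-21 in WT_M2 and 1.14e-16 in KO_M2. Those groups overlapped, and the values became 0.32 without WT_M2 vehicle replicate 1 and 0.08 without KO_M2 vehicle replicate 3. A pass in the fit without the filter is therefore not read as support. In that fit these passed the threshold. For Acod1 they were the WT_M2 minus WT_M0 difference of responses (-3.10), KO minus WT in M2 (-1.34), WT_M1 minus WT_M0 (1.52) and WT_M2 minus WT_M0 (1.15). For Slc13a3 they were AP-3-84 in WT_M0 (-0.96), WT_M1 (0.71), WT_M2 (-2.02) and KO_M2 (-1.81), the differences of responses KO minus WT in M1 (-1.03), WT_M1 minus WT_M0 (1.66) and WT_M2 minus WT_M0 (-1.07), KO minus WT in M1 (1.18), WT_M1 minus WT_M0 (0.64) and WT_M2 minus WT_M0 (-2.42). DESeq2 passed the Acod1 difference of responses WT_M2 minus WT_M0 (-3.11), Acod1 in WT_M1 minus WT_M0 (1.52) and Slc13a3 in WT_M2 minus WT_M0 (-2.41). All 48 libraries in one fit gave -3.08, 1.48 and -2.45 for these, and 2.00 for Slc13a3 in ascites minus thio.

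Without WT_M2 vehicle replicate 1 and KO_M2 vehicle replicate 3 together, an alternative chosen after seeing the data, Acod1 gave 0.48 after AP-3-84 in KO_M2 (reversed), 2.26 for the M2 difference of responses, -0.09 in WT_M2 minus WT_M0 (reversed) and 1.61 in WT_M1 minus WT_M2. Slc13a3 gave 0.32 and 0.09 after AP-3-84 in WT_M2 and KO_M2, -0.23 and 1.27 for the differences of responses KO minus WT in M2 and WT_M2 minus WT_M0 (these 4 reversed), -4.75 in WT_M2 minus WT_M0 and 1.93 in KO_M2 minus KO_M0. Clybl gave -0.57 in WT_M1 minus WT_M2.

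Leaving out 1 library at a time, Acod1 after AP-3-84 ranged from -0.21 to 0.31 in WT_M0, from -3.49 to -1.78 in WT_M2 and from -0.35 to 0.47 in KO_M2. Its differences of responses ranged from 1.70 to 3.50 (KO minus WT in M2) and from -3.55 to -1.85 (WT_M2 minus WT_M0). Among vehicle groups it ranged from -1.91 to -0.10 (KO minus WT in M2), from -0.10 to 1.63 (WT_M2 minus WT_M0), from -0.10 to 1.61 (WT_M1 minus WT_M2) and from 1.20 to 2.09 (KO_M1 minus KO_M2). Slc13a3 after AP-3-84 ranged from -0.03 to 0.28 in ascites, from -2.51 to 0.32 in WT_M2, from -0.64 to 0.19 in KO_M1 and from -3.12 to 0.08 in KO_M2. Its differences of responses ranged from -2.13 to 2.11 (KO minus WT in M2) and from -1.55 to 1.27 (WT_M2 minus WT_M0). Among vehicle groups it ranged from -1.87 to 2.37 (KO minus WT in M2), from -4.76 to -1.91 (WT_M2 minus WT_M0), from 2.56 to 5.39 (WT_M1 minus WT_M2) and from 1.94 to 4.30 (KO_M2 minus KO_M0). Clybl ranged from -0.99 to -0.58 in WT_M1 minus WT_M2 and Slc25a1 from 0.50 to 0.95 in WT_M1 minus WT_M0. At 5 to 20 counts, Slc13a3 in thio vehicle libraries was limited by depth.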

Other observations

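Citrate that leaves mitochondria through Slc25a1 feeds lipid synthesis, and genes of that use were described as a list of 10, of which 9 could be tested. In ascites against thio vehicle cells 4 were higher and none lower (33.7% of genes called), led by Scd1, a fatty acid desaturase, by 4.27 on the log2 scale, and including Acly, ATP citrate lyase, by 0.45. After AP-3-84 the list had calls in thio, with 1 higher (Acss2, acetyl-CoA synthetase, 1.32) and 1 lower (Acly, -0.26, a call lost without any 1 library other than AP-3-84 replicate 2), and none in ascites, WT_M0, WT_M1, WT_M2, KO_M1 or KO_M2. In thio 4.32% of all genes were called after AP-3-84. Of 11 genes of vitamin B12 and propionate metabolism, a pathway that citramalyl-CoA cleavage by Clybl is known to protect, 1 was higher and 3 lower in ascites than in thio, led by Pccb, a subunit of propionyl-CoA carboxylase, at -1.47. That share is near the 33.7% of all genes called there. From KO_M0 to KO_M1 5 were higher and 2 lower, where 44.5% of all genes were called, among them Mmab (1.48) and Mcee (-1.08). Without KO_M0 or KO_M1 replicate 3, 2 were higher and 2 lower. From KO_M0 to KO_M2 4 were higher and none lower, a share near the 38% of all genes called there. After AP-3-84 Mut, the B12-dependent mutase, fell in thio from 33.2 ± 3.58 to 24.2 ± 2.96 CPM (SD, n = 3; -0.45 on the log2 scale, edgeR adjusted p 0.0443), a call lost without any 1 library other than AP-3-84 replicate 2, with the block and with all 48 libraries in one fit. No other gene of this list was called after AP-3-84 outside KO_M0.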
